A study of Arabidopsis thaliana with 6 samples.

Results

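The 6 class II genes of the LATERAL ORGAN BOUNDARIES DOMAIN (LBD) family of Arabidopsis thaliana, LBD37 (AT5G67420), LBD38 (AT3G49940), LBD39 (AT4G37540), LBD40 (AT1G67100), LBD41 (AT3G02550) and LBD42 (AT1G68510), were examined for summits of HA-tagged WDR5A, out of 27444 protein-coding genes. The genes were taken by name as a family, and each was read over a window of the gene plus 500 bp to either side. The family was selected on the positions and strengths of its summits in the same 3 lists, so these values are given as a description and were not tested.

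LBD proteins are plant-specific transcription factors that bind DNA through a cysteine-rich LOB domain. Class I members, such as LOB, AS2 and LBD16, are known for organ boundaries, leaf polarity and lateral root formation. They carry a leucine-zipper-like coiled coil that class II members lack. Among class II genes, LBD37, LBD38 and LBD39 are nitrate-induced repressors of anthocyanin synthesis and of nitrogen-responsive genes, and LBD41 belongs to the core set of genes induced by low oxygen. The immunoprecipitated protein, WDR5A, is the WD40 scaffold of plant COMPASS-like enzymes, which place methyl groups on lysine 4 of histone H3. PKL, or PICKLE, belongs to the CHD3 family of ATP-dependent remodellers.

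Chromatin immunoprecipitation with sequencing was done on whole seedlings of 9 days, kept under constant white light, with 3 immunoprecipitated (IP) and 3 input libraries. All 6 libraries carry the genotype label WDR5A-HA_pkl, and the descriptions call the groups WDR5A-HA_pkl-IP and WDR5A-HA_pkl-input. The titles instead read PKL_WT for the IP and PKL_jaw-5D for the input libraries, so bait and genotype rest on the descriptions. The promoter of the tagged gene, the pkl allele and the number of lines are not stated in the labels. The files analysed here are 1 summit list for each IP replicate and none for an input or a second genotype, so no contrast between groups, and none with or without PKL, could be computed. The lists hold 10864, 10408 and 10826 summits for replicates 1, 2 and 3, with a median strength of 7.08, 6.48 and 6.64. Strength is the deposited −log10 of the q-value of a peak, which grows with sequencing depth as well as with enrichment, and the depth is unknown. Whole seedlings were used, so strong occupancy in few cells and weak occupancy in many cannot be told apart.

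WDR5A-HA was called at 4 of the 6 class II genes, LBD37, LBD38, LBD39 and LBD41, in each of the 3 lists, and LBD40 and LBD42 had no summit in their windows in any list. Of all protein-coding genes, 24.8% (6801 of 27444) had a summit in all 3 lists by the same rule. None of the 6 was called in only 1 or 2 lists. Among all protein-coding genes, 33.5% (9189) had a summit in at least 2 lists, against 24.8% (6801) in all 3. The share with a summit in only 1 list is not given here. The same 4 genes also held a summit inside the gene body in every list, where 11.1% of all protein-coding genes did. With weak summits (below the list median) set aside, the 4 were still called, against 11.7% of all genes. LBD37 and LBD41 remained when only the strongest 10% of each list was kept, against 2.07% of all genes. Flanks of 1000 bp (29.3% of all genes) or 3000 bp (43.6%), or a rule of at least 2 lists (33.5%), loosen the call. Such settings can only add genes, and neither LBD40 nor LBD42 was added. The same 4 were called when the summits had to lie within 250 bp of one another (22.6%). Giving each summit to 1 gene (17.7%) kept them too.

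**Figure D1:**
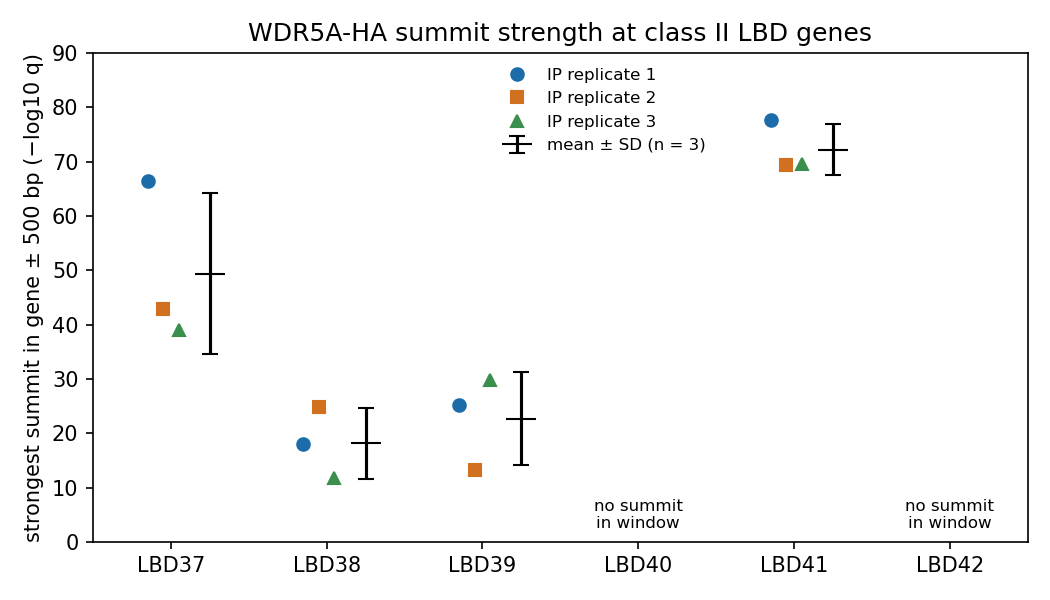
Strength of the strongest summit in the gene plus 500 bp (−log10 q, y axis) for each class II LBD gene (x axis), with 1 point per IP replicate and the mean ± SD over the 3 replicates in black. LBD41 lies between 69.4 and 77.6 and LBD37 between 38.9 and 66.4, LBD38 and LBD39 overlap, and LBD40 and LBD42 have no summit in the window.

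LBD41, the low-oxygen gene, carried the strongest summit of the family and held 2 separate regions called in all 3 lists. The stronger region lay outside the gene, 301 bp beyond its upper edge in replicates 1 and 3 and 304 bp beyond it in replicate 2. Lower and upper refer to chromosome coordinates, since the gene table used carries no strand, and gene starts and ends were therefore not told apart. Its strength was 77.6, 69.4 and 69.5 in replicates 1, 2 and 3, a mean of 72.2 ± 4.68 (SD, n = 3). The 3 lists stood close together at this site, with a highest value 1.12 times the lowest. The summits fell at position 538427 of chromosome 3 (TAIR10) in replicates 1 and 3 and at 538430 in replicate 2, a spread of 3 bp. The median spread over the 6684 regions called in all 3 lists was 57 bp, and 28 of them (0.419%) had a spread of 3 bp or less.

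The second LBD41 region lay inside the gene, 205, 258 and 232 bp from the lower edge in replicates 1, 2 and 3. Its strength was 36.3, 26.2 and 26.4, a mean of 29.6 ± 5.80 (SD, n = 3), below the outer region in each list. The regions were 1695 bp apart. The inner one also fell in the window of the neighbouring gene RAD23C, which lies 86 bp from LBD41 and encodes a ubiquitin receptor of the RAD23 family. The outer one was in no other gene's window, so the call at LBD41 does not depend on the shared summit. Of the 6189 protein-coding genes whose window held at least 1 region of all 3 lists, 879 (14.2%) held 2 or more, and LBD41 was the only class II LBD gene among these.

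LBD37, a nitrate-induced repressor, had its strongest summit in the window inside the gene, 786, 865 and 842 bp from the lower edge in replicates 1, 2 and 3. The strength there was 66.4, 42.8 and 38.9, a mean of 49.4 ± 14.9 (SD, n = 3). Replicate 1 stood above the other two, with a highest value 1.71 times the lowest. The summits lay at positions 26904652, 26904731 and 26904708 of chromosome 5, between 29.6 and 32.5% of the gene's length from its lower edge. Replicate 2 alone held a further summit inside the gene, at a strength of 11.1.

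A second strong region stood near LBD37 but outside the window, 2536 to 2572 bp below its lower edge. There the strength was 66.4, 55.5 and 57.8 in replicates 1, 2 and 3, a mean of 59.9 ± 5.76 (SD, n = 3). It was stronger than the summit inside LBD37 in replicates 2 and 3, and level with it in replicate 1. This region ranked 47 and the one inside LBD37 ranked 97 among the 6684 regions called in all 3 lists. It lay in the 4130 bp between LBD37 and AT5G67411 and in the window of no annotated gene. Between it and LBD37, replicates 2 and 3 held weak summits of 1.75 to 5.78, and replicate 1 held none.

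LBD39 and LBD38, the close relatives of LBD37 in nitrate response, carried weaker summits than LBD37 in every list. At LBD39 the strongest summit lay inside the gene, 452, 396 and 460 bp from the lower edge, at positions 17639845, 17639789 and 17639853 of chromosome 4 in replicates 1, 2 and 3. Its strength was 25.2, 13.2 and 29.7, a mean of 22.7 ± 8.56 (SD, n = 3), with replicate 2 the lowest. A weak summit just beyond the upper edge, at 89 and 108 bp, was called in replicates 1 and 2 at 3.48 and 3.72, and not in replicate 3. Farther out, a region of all 3 lists stood 1043 to 1096 bp beyond the upper edge, at 6.74, 8.76 and 7.83 in replicates 1, 2 and 3. Another, at 32.2, 17.1 and 20.5, lay inside the neighbouring gene AT4G37550. That neighbouring region had a mean of 23.3 ± 7.96 (SD, n = 3), within the replicate spread of the one inside LBD39.

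At LBD38 the strongest summit lay near the middle of the gene, between 47.2 and 54.3% of its length, at positions 18515146, 18515253 and 18515278 of chromosome 3. Its strength was 18.0, 24.8 and 11.7 in replicates 1, 2 and 3, a mean of 18.2 ± 6.54 (SD, n = 3). Its summits spread over 132 bp, the widest of the 5 shared regions in the class II windows, whose other spreads were 3, 53, 64 and 79 bp. Replicate 3 alone had a further summit in the window, 322 bp beyond the upper edge, at 6.84. A weaker region of all 3 lists, at 9.15, 7.19 and 8.88, stood 2331 to 2379 bp beyond the upper edge, in the window of no annotated gene.

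**Figure D2:**
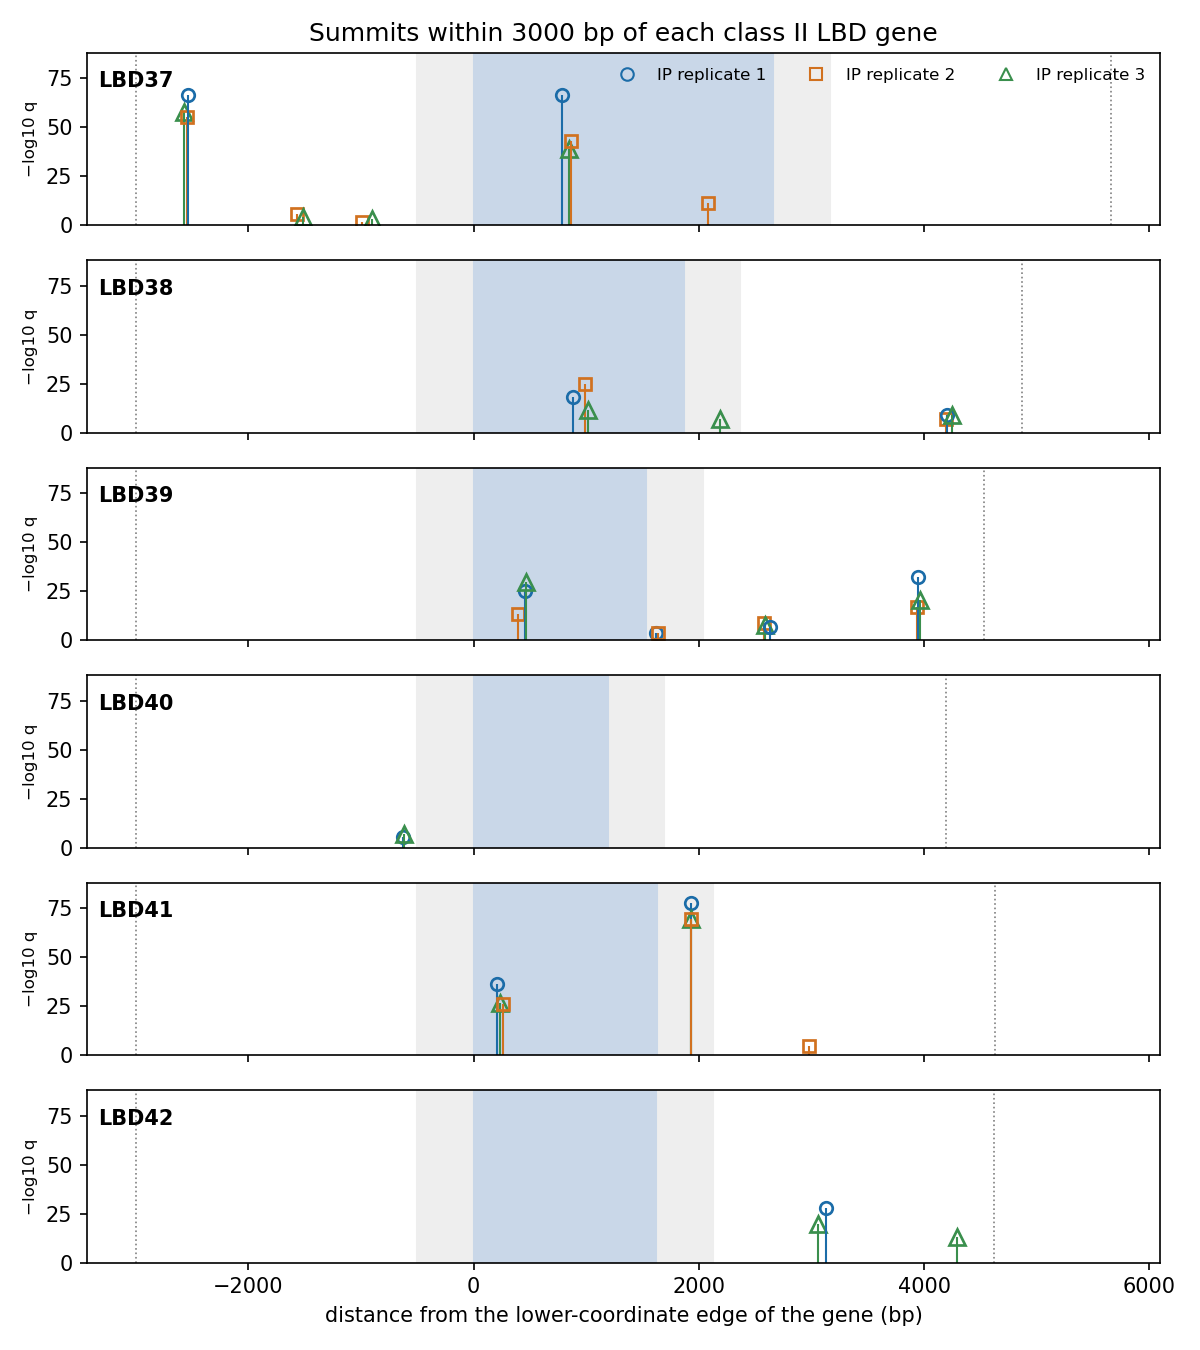
Summits within 3000 bp of each class II LBD gene, by distance from the gene's lower-coordinate edge (x axis, bp) and strength (y axis, −log10 q), with symbol and colour for the IP replicate. Blue marks the gene, grey the 500 bp to either side, and dotted lines the limits of the search. LBD37 and LBD41 have 2 tall groups each, LBD38 and LBD39 lower ones, and LBD40 and LBD42 only summits outside the grey.

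LBD40 and LBD42 differed from the other 4 in having nothing called in the window, and neither had a region of all 3 lists within 3000 bp. The summits nearest to LBD40 lay 627 and 619 bp below its lower edge in replicates 1 and 3, at 5.25 and 7.15, below the list median in replicate 1 and slightly above it in replicate 3. They were the summits closest outside the 500 bp limit among the 6 genes, and the 322 bp of LBD38 was the farthest inside it. Replicate 2 had none near LBD40, and its closest summit was 5567 bp away, a strong one of 83.0 at RBCS1A, the next gene below LBD40, which encodes a small subunit of Rubisco. Widening the window to 1000 bp did not bring LBD40 in, because replicate 2 was missing.

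LBD42 overlaps the B-box gene BBX14 by annotation, yet none of the BBX14 summits reached the LBD42 window. In replicates 1 and 3 summits of 28.0 and 19.9 lay inside BBX14, 1509 and 1432 bp beyond the upper edge of LBD42. Replicate 3 held a further summit of 13.1, 2674 bp beyond the upper edge. In replicate 2 no summit was called within 3000 bp, and the closest was 4438 bp away. A missing summit shows only that none was called at the depth of these libraries, which is unknown.

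Across the 4 called genes, LBD41 stood first and LBD37 second in each of the 3 lists. The ranges of LBD41 and LBD37 did not overlap, and those of LBD37 and LBD39 did not either. LBD39 and LBD38 could not be ordered: LBD39 was higher in replicates 1 and 3, LBD38 in replicate 2, and their ranges overlapped. By mean strength of the strongest summit, LBD41 ranked 15 among the 6801 called protein-coding genes, LBD37 84, LBD39 688 and LBD38 1069. The median of that mean over all called genes was 8.90 and the 90th percentile 22.8, a level LBD39 nearly matched and LBD38 stayed below. The gap between LBD37 and its relatives rests on summits inside the genes in all 3 cases. LBD41 led through its outer region. With gene bodies alone it fell to 29.6, below LBD37 at 49.4.

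**Figure D3:**
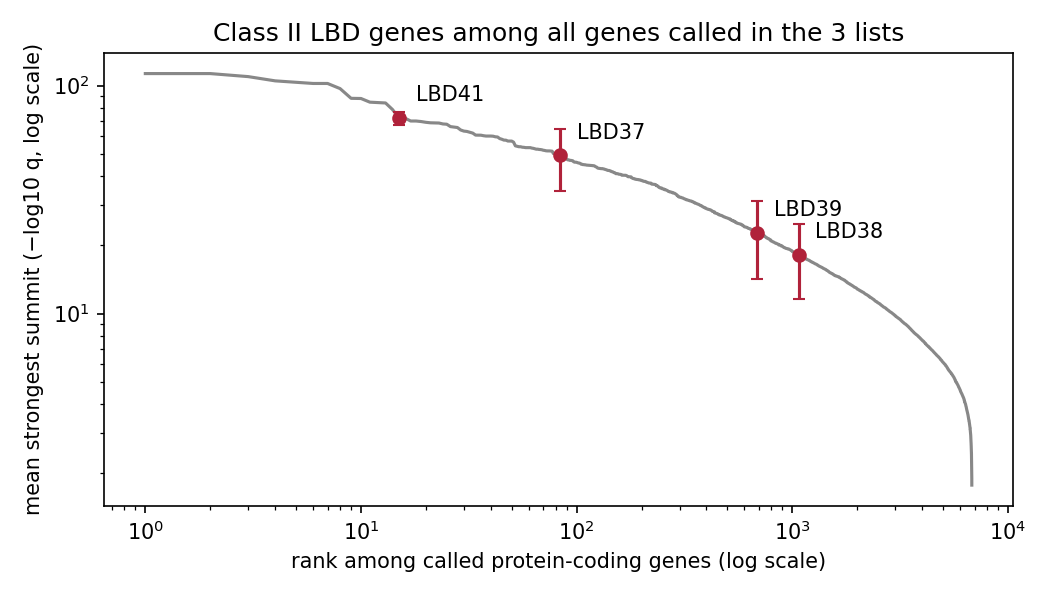
Mean strength of the strongest summit (y axis, −log10 q, log scale) against rank (x axis, log scale) for the 6801 protein-coding genes called in all 3 lists, as a grey line. Red points are the 4 called class II LBD genes with their SD over 3 replicates, at ranks 15, 84, 688 and 1069.

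The surroundings of the 4 called genes held more than 1 region of all 3 lists each. Within 3000 bp, LBD39 had 3 such regions and LBD37, LBD38 and LBD41 had 2 each, where 37.5% of the called protein-coding genes (2547 of 6801) and 11.6% of all protein-coding genes (3174) had 2 or more. The 4 genes belong among the called ones, so the first share is their background. All 4 genes had 1 such region inside the gene, at different places: 12.6 to 15.9% of the length from the lower edge in LBD41, 25.8 to 30.0% in LBD39, 29.6 to 32.5% in LBD37 and 47.2 to 54.3% in LBD38. Without strand these places cannot be read as distances from the gene start.

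The rest of the family, the class I genes, was read by the same rule, and no difference between the classes was tested. Of 36 class I genes, 3 (8.33%) had a summit in all 3 lists, against 4 of 6 class II genes and 24.8% of all genes. The 3 were LBD4 at 28.5, 30.6 and 13.0 in replicates 1, 2 and 3, LBD31 at 20.5, 8.73 and 14.3, and ASL9 (LBD3) at 6.54, 8.95 and 10.7. Their means were 24.0 ± 9.63, 14.5 ± 5.90 and 8.72 ± 2.07 (SD, n = 3). LBD31 was not called when each summit was given to 1 gene. LBD4 stood at the level of LBD39, with overlapping ranges, and below LBD37 and LBD41 in every list. The strongest LBD4 summits also lay in the window of the neighbouring gene PSAF. LBD4 was still called when each summit was given to 1 gene.

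Another 3 class I genes had summits in 2 lists, among them the leaf polarity gene AS2, and 1 had a summit in 1 list. The other 29, LOB and the lateral root genes LBD16, LBD18 and LBD29 among them, had none. Leaving out replicate 1, 2 or 3 gave class I counts of 5, 3 and 4 (13.9, 8.33 and 11.1%). The same settings called 27.5, 28.1 and 27.5% of all genes. Class I genes are shorter, with a median of 1340 bp against 1624.5 bp for class II and 2078 bp for all protein-coding genes, and a shorter gene has a smaller window. The part of gene length in these counts was not tested.

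**Figure D4:**
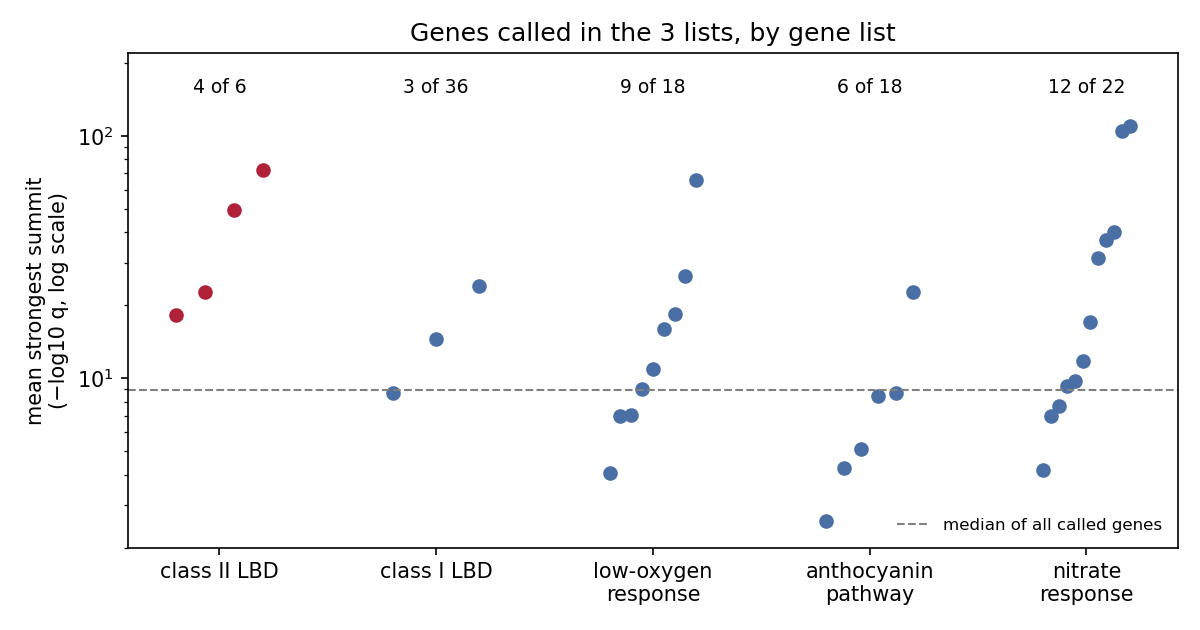
Mean strength of the strongest summit (y axis, −log10 q, log scale) for the genes called in all 3 lists, by gene list (x axis), 1 point per gene, with the number called of the number listed above each column. The dashed line is the median over all called genes, 8.90. The 4 class II LBD genes lie above it, from 18.2 to 72.2.

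Genes of the pathways in which class II LBD genes act were set beside them. Of 18 low-oxygen genes other than LBD41, 9 had a summit in all 3 lists, against 24.8% of all genes. Among these 9 were 6 transcription factor genes, RAP2.2, RAP2.3, RAP2.12, HRE1, HRE2 and HRA1. HRE1, which overlaps the gene P40 by annotation, had a mean of 10.9 ± 3.12 (SD, n = 3). The means of RAP2.12, HRE2 and RAP2.2 were 7.07 ± 4.87, 6.99 ± 0.683 and 4.05 ± 0.990 (SD, n = 3). They lay below the median over all called genes, 8.90. RAP2.12 reached only 1.59 in replicate 3 and was not called when summits had to lie within 250 bp of one another. HRE2 was not called when each summit was given to 1 gene. RAP2.3, an ERF-VII factor that activates the response, had 73.2, 57.2 and 66.1 in replicates 1, 2 and 3, and HRA1, a trihelix factor that attenuates it, had 38.4, 16.4 and 24.5. The NADPH oxidase gene RBOHD reached a mean of 18.4 ± 8.14 and the cysteine oxidase gene PCO2, whose product marks ERF-VII factors for degradation, 16.0 ± 5.85 (SD, n = 3). The strongest PCO2 summits also lay in the window of the neighbouring gene AT5G39900. The enzyme gene ALAAT1, for an alanine aminotransferase, was also called, at 9.05 ± 1.86 (SD, n = 3), and PCO1, ACO1 and PRT6 had summits in 2 lists. The fermentation genes ADH1 and PDC1, the sucrose synthase genes SUS1 and SUS4, the haemoglobin gene HB1 and SAD6 had no summit in any list. LBD41 was stronger than RAP2.3, the strongest of these, in each list, by 3.37 to 12.2 units of −log10 q.

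Of the anthocyanin genes, whose pathway LBD37, LBD38 and LBD39 repress, 6 of 18 (33.3%) were called, near the 24.8% of all genes. MYBL2, itself a repressor of anthocyanin synthesis, led with 24.2, 18.8 and 25.4 in replicates 1, 2 and 3, close to the level of LBD39. Its strongest summits also lay in the window of the neighbouring gene LPR2. GSTF12, the bHLH gene TT8 and the chalcone synthase gene CHS followed at 8.72 ± 4.01, 8.42 ± 3.98 and 5.13 ± 3.04 (SD, n = 3), each below the median over all called genes. By annotation GSTF12 overlaps the gene PSY and CHS overlaps AT5G13940, so a summit may lie in both windows. The WD40 gene TTG1 at 4.28 ± 1.90 and the hydroxylase gene F3'H at 2.57 ± 0.970 (SD, n = 3) were the other called genes. TTG1 was not called when summits had to lie within 250 bp of one another. The enzyme genes CHI, F3H and LDOX had summits in 2 lists. The remaining 9, the activator genes MYB75, MYB90, MYB113, MYB114, GL3 and EGL3, the enzyme genes DFR and UF3GT, and CPC, had none. Activator and enzyme genes were thus found both with and without summits. With weak summits (below the list median) set aside, 1 of the 18 (5.56%) was left, against 11.7% of all genes.

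Of 22 nitrate response genes, 12 (54.5%) were called, against 24.8% of all genes. They were led by the nitrate reductase gene NIA2 at 109.6 ± 17.6, the scaffold gene BT2 at 105.0 ± 12.8, NIA1 at 40.3 ± 7.40 and AT1G68670 at 37.2 ± 9.43 (SD, n = 3). LBD37 stood below NIA2 and BT2 and above NIA1 in each list, though only just above NIA1 in replicate 2 (42.8 against 42.3). AT1G68670, at 26.4, 43.9 and 41.3 in replicates 1, 2 and 3, was below LBD37 in replicate 1. It was above LBD37 in replicates 2 and 3. The transporter genes NRT2.1 and NRT2.2 had no summit, nor had G6PD3, AT3G25790 and NLP6. AT1G25550 had summits in 2 lists, at 51.1 and 30.4 in replicates 1 and 3. NRT2.5, RFNR1, HRS1 and CIPK23 had a summit in 1 list. NRT1.1 was called at 17.1 ± 4.48 (SD, n = 3), at the level of LBD38. The weakest called gene of the list was NLP7, at 4.17 ± 0.627 (SD, n = 3).

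The genes whose strengths over the 3 lists were most like those of each called member were found by Euclidean distance on the log10 scale. For LBD41 they were AT3G56360 and AT1G04000, at distances of 0.0391 and 0.0463. For LBD37 they were the neighbours AT5G60390 and AT5G60400, which share their summits, at 0.0549. For LBD39 they were the auxin response repressor gene IAA9 (0.0139) and AT1G05136 (0.0322), and for LBD38 the cellulose synthase gene CESA6 (0.0150) and KCS20 (0.0478), a gene of fatty acid elongation. With 3 lists a close match is easily found among 6801 genes, so these are descriptions of like strength and nothing more.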

How the data were processed

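The authors deposited 1 summit list per IP replicate, with a 1 bp position, a peak name and a score read as the −log10 of a q-value, since its minimum sits at −log10 of 0.05 (1.30). The submitters' processing notes name MACS2 2.2.5, Bowtie2 2.3.3, deepTools and fastp, and the build TAIR10. Peak names carry the replicate, so peaks were taken as called per sample. Neither thresholds nor use of inputs nor depth is stated there. Summits are printed 1-based. Genes came from an NCBI RefSeq table of assembly TAIR10.1, whose coordinates are not printed. Shared regions lay closest to gene edges (share within 250 bp) with no shift in 26 of 26 blocks of 5 Mb, when shifts of 500 to 5000 bp were tried. No genome or protein sequence was used here.

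A gene was called when the gene plus 500 bp held a summit of each list. A summit in several windows counts for each gene. Summits were chained across lists when within 250 bp, and a region shared by all 3 lists is one such chain. The value of a gene is its strongest summit per list, given as mean ± SD over 3 replicates, which are biological per the series' design text. Python 3.11.15 with pandas 2.3.3 was used, and the calling was tested on simulated summits. All 64 listed loci matched the table. Class I genes are those with an LBD number, LOB or AS2 as symbol or synonym, other than the 6. Named genes are the 6, the 4 strongest called genes of each list, neighbours sharing a summit, and the 2 nearest in strength. Others named beside them, such as genes with no summit and NRT1.1, were chosen after their values were seen. The members and lists were chosen with earlier results of these data known, and no test was run.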

Additional observations from a re-analysis of the deposited data

How the results depend on the processing

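The same 4 of 6 class II LBD genes were called under 10 other windows, list requirements, assignments and left-out replicates. Wider flanks, a rule of 2 lists or a left-out replicate only loosen the rule, so these settings could not lose a called gene. The stricter settings were gene bodies, summits at or above the median, summits within 250 bp and 1 gene per summit, and they kept all 4. The count became 2 with only the strongest 10% of each list. That setting and the 3000 bp flank were chosen after seeing the data. Leaving out 1 replicate gave 4 to 4 class II genes, 3 to 5 class I genes, 10 to 10 low-oxygen genes, 6 to 8 anthocyanin genes, 12 to 13 nitrate genes and 7539 to 7700 of all genes. The 19 summits in the class II windows became 12 to 13 without 1 replicate, since fewer lists were counted. Of 36 class I genes, 1 (2.78%) was called with gene bodies only, 6 (16.7%) with 1000 bp flanks and 6 (16.7%) with 2 lists. With 3000 bp flanks 11 (30.6%) were called, and 0 with the strongest 10%. Of 18 anthocyanin genes, 1 (5.56%) was called with summits at or above the median, 11 (61.1%) with 3000 bp flanks and 0 with the strongest 10%. That last setting left 1 of 18 low-oxygen genes (5.56%) and 5 of 22 nitrate genes (22.7%). Of all protein-coding genes, 3045 (11.1%) were called with gene bodies, 3203 (11.7%) at or above the median and 8035 (29.3%) with 1000 bp flanks. With 2 lists 9189 (33.5%) were called, with 3000 bp flanks 11955 (43.6%) and with the strongest 10% 569 (2.07%). The mean at LBD41 was 29.6 with the gene body only and 50.9 with the mean of all summits in the window. No paired analysis was possible because the input replicates gave no list to the files used and nothing was tested between groups. Depth is unknown, so a gene with no summit is one where none was called.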
